A study of Mus musculus with 24 samples.

Results

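The monocyte and macrophage identity genes are a group of 9 genes that mark mononuclear phagocytes: Csf1r, Cx3cr1, Adgre1, Cd68, Ly86, C1qa, C1qb, C1qc, and Nr4a1. A probe was taken for a member when its RefSeq accession, looked up in a gene table, gave the symbol of the member, since the files hold no gene names. By this rule 8 of the 9 genes had a probe, among 20659 genes with a symbol on the array, and Cd68 was not analysed here. RNA of CD11b+ cells, taken from bone marrow or spleen, was measured on single-colour Agilent mouse expression arrays. The mice were male WT, HDC-KO, and STAT6-KO animals on a Balb/C background, 10 weeks old by the study's methods, either as controls or at 1, 2, and 4 weeks after myocardial infarction (MI). HDC-KO mice lack histidine decarboxylase, the enzyme that makes histamine, and STAT6-KO mice lack a transcription factor that acts downstream of interleukin-4 and interleukin-13. The cells of 5 mice were pooled for every array, and none of the 24 conditions had a second array. Differences from mouse to mouse are therefore not seen in the values. How the CD11b+ cells of the arrays were isolated is not given in the sources used here. Incomplete files were left out, namely those of the HDC-KO control in spleen (229 spots) and of STAT6-KO at MI 1 week in bone marrow (84 spots), neither with a spot of a member. The other 22 arrays were used, 11 from each tissue.

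Mononuclear phagocytes arise in the bone marrow as monocytes, which leave for the blood and the spleen, and tissues such as the spleen also hold resident macrophages. Csf1r is the receptor for the growth factors Csf1 and Il34, on which these cells depend for survival, and Cx3cr1 is the receptor for the chemokine Cx3cl1, with high levels on nonclassical (patrolling) monocytes. Adgre1 is the F4/80 antigen of mouse macrophages, Ly86 (MD-1) is the partner of the receptor Cd180, the C1q genes encode the chains of the recognition molecule of the classical complement pathway, and Nr4a1 is a nuclear receptor needed for nonclassical monocytes and induced early by many stimuli.

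All levels are log2 of the background-subtracted signal minus the 75th percentile of its array, so that 1 unit is a 2-fold difference. That percentile lay between 928 and 2461 in spleen and between 963 and 1780 in bone marrow, and from 70.4 to 79.8% of the spots were well above background. Every member was well above background on every array on which it had a value, which was 21 arrays for Adgre1 and 22 for the others. The Adgre1 spot of HDC-KO bone marrow control was marked as an outlier and left out. Levels of different probes are not ranked against each other.

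The genes removed in the knockouts were read first, as a check of the labels. For Hdc, HDC-KO arrays had levels from 1.67 to 2.78 and WT arrays from 4.32 to 5.51, without overlap. Stat6 has 3 probes. On the probe used, spleen levels from control to MI 4 weeks were 2.38, 2.79, 2.75, and 2.90 in WT and 1.94, 2.34, 2.44, and 2.12 in STAT6-KO. STAT6-KO was lower at every time, and its range overlapped with that of WT only through the WT control. On the other 2 probes WT spleen ranged from 0.05 to 1.29 and from -0.43 to 1.08, and STAT6-KO spleen up to MI 2 weeks ranged from -1.11 to -0.29 and from -1.72 to -0.87, below WT. At MI 4 weeks the array labelled as STAT6-KO spleen had 0.73 and 0.20 on them, inside the WT ranges. In bone marrow STAT6-KO lay below WT on all 3 probes without overlap, from 1.76 to 2.34 against 2.78 to 3.70 on the probe used. Whether these probes lie in the deleted part of either gene is not known. The C1q differences of STAT6-KO spleen, the interaction of C1qa and C1qb, and Nr4a1 at MI 4 weeks in spleen are therefore also given without it, and other values include it. Slide was taken here as the group of all 4 times of a genotype and tissue. Neither genotype nor tissue can therefore be told apart from slide, nor time after MI from position on the slide.

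The members were compared between the tissues first, to see where in the body the identity genes were high in CD11b+ cells. All 8 measured members were higher in spleen than in bone marrow, in each of the 10 pairs of arrays that shared a genotype and a time point. The differences ran from 0.65 on the log2 scale for Csf1r to 2.03 for Adgre1, and their median was 1.58. Over all 27659 genes tested the median was -0.17, where, as in every count of all genes below, probes without a symbol are counted under their array accession. Fewer cells of a type and less RNA per cell cannot be told apart in such bulk samples.

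Among the receptors, Csf1r ranged from 5.28 to 6.35 in spleen (median 5.62) and from 4.66 to 5.41 in bone marrow (median 5.04). The tissues overlapped by a narrow margin, since HDC-KO spleen MI 2 weeks lay below WT bone marrow MI 4 weeks. Its mean difference over the pairs was 0.65 ± 0.40 (SD, 10 pairs), a 1.57-fold difference, and the smallest difference of a pair was 0.21, in WT at MI 4 weeks. On its other probes the mean difference was 1.15, with 9 of 10 pairs higher in spleen, and 0.81, with 10 of 10. Cx3cr1 ranged from 2.01 to 3.29 in spleen (median 2.58) and from 0.61 to 1.68 in bone marrow (median 1.36). The tissues did not overlap on this probe. Its mean difference was 1.41 ± 0.48 (SD, 10 pairs), or 2.65-fold, and it was widest in HDC-KO at MI 1 week (2.62). On the other Cx3cr1 probe the tissues overlapped, and 8 of 10 pairs were higher in spleen, by 0.91 on average.

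Adgre1 and Ly86 separated the tissues by the widest margins. Adgre1 ranged from 4.18 to 5.13 in spleen (median 4.73) and from 2.24 to 3.09 in bone marrow (median 2.60). Its mean difference was 2.03 ± 0.35 (SD, 10 pairs), or 4.08-fold, and its lowest spleen array lay 1.09 above its highest bone marrow array. Its other probe gave 1.94 ± 0.46, also without overlap. Ly86 ranged from 3.67 to 4.28 in spleen (median 3.97) and from 1.65 to 2.90 in bone marrow (median 2.25). The gap between the tissues was 0.77, and the mean difference was 1.62 ± 0.44 (SD, 10 pairs), or 3.08-fold.

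The genes of the C1q chains were higher in spleen as well, but their lowest spleen levels came close to their highest bone marrow levels. C1qa ranged from 0.98 to 3.0 in spleen (median 2.39) and from -0.20 to 1.25 in bone marrow (median 0.34). C1qb ranged from -0.52 to 1.31 in spleen (median 0.75) and from -1.69 to -0.59 in bone marrow (median -1.17). C1qc ranged from 3.39 to 5.04 in spleen (median 4.66) and from 1.70 to 3.37 in bone marrow (median 2.42). C1qa overlapped between the tissues, and C1qb and C1qc were apart by only 0.07 and 0.02. In each case the lowest spleen array was a WT array after MI and the highest bone marrow array was a knockout at MI 4 weeks. The mean differences were 1.57 ± 0.59 for C1qa, 1.59 ± 0.71 for C1qb, and 1.79 ± 0.41 for C1qc (SD, 10 pairs), which are 2.97-fold, 3.01-fold, and 3.46-fold. The probe of C1qc is printed in 10 spots, whose SD within an array had a median of 0.08 and was at most 0.14.

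Nr4a1 ranged from 4.62 to 6.27 in spleen (median 5.05) and from 2.84 to 5.28 in bone marrow (median 3.81). Of the members it had the widest overlap between the tissues on the probes used, as WT bone marrow MI 4 weeks lay 0.66 above WT spleen MI 1 week. Its mean difference was 1.21 ± 0.44 (SD, 10 pairs), or 2.31-fold.

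**Figure D1:**
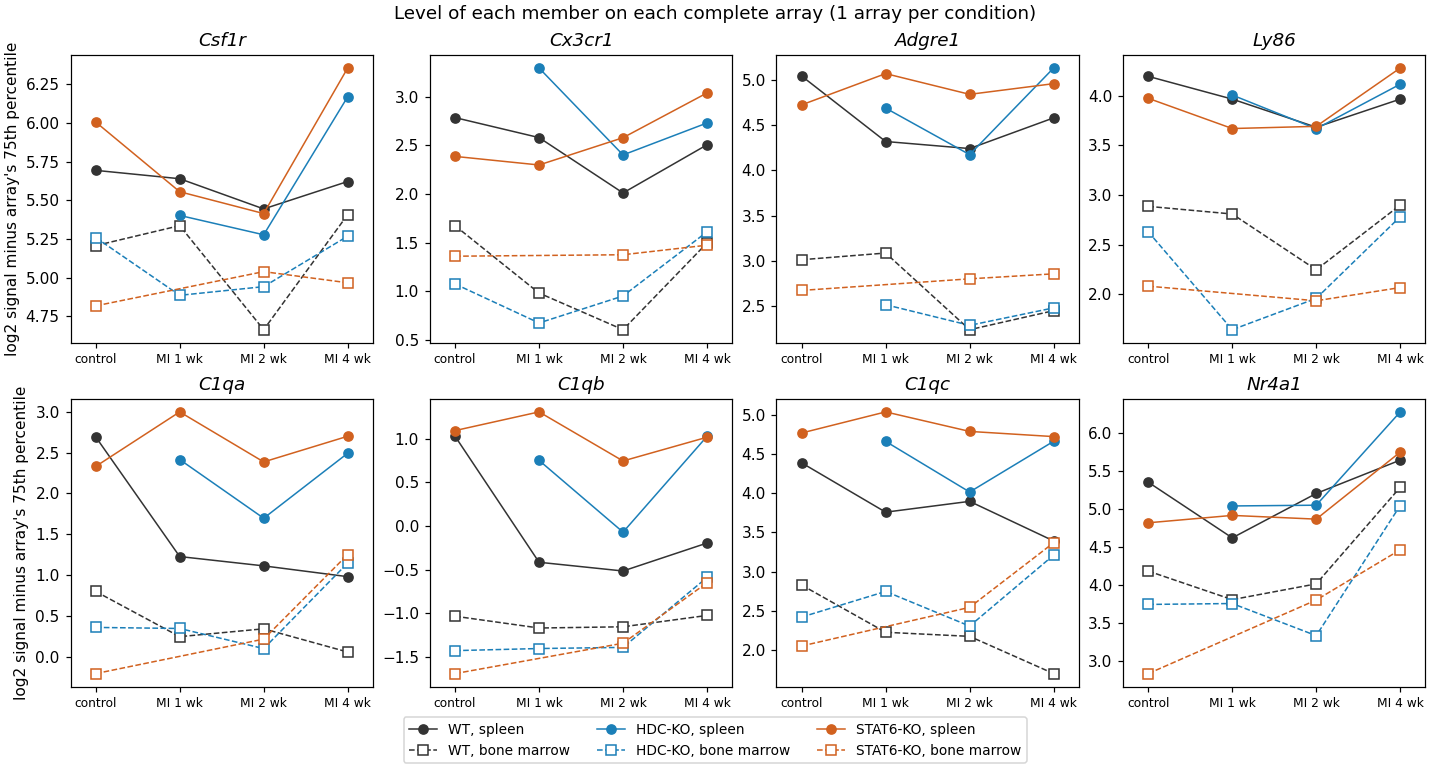
Level of each measured member (log2 signal minus the 75th percentile of the array) against time after MI, with 1 point per array, filled circles for spleen, open squares for bone marrow, and a colour for each genotype. Adgre1 in spleen lies at 4.18 and above and in bone marrow at 3.09 and below, and the C1q genes of WT spleen lie lower at each time after MI than in the control.

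By limma with the pair as a block and p adjusted over all genes, 8 of 8 measured members were called higher in spleen, from Adgre1 (adjusted p = 1.73e-07, SE 0.12) to Csf1r (adjusted p = 0.00142, SE 0.13). Of all genes tested, 54.5% passed the threshold of 0.05, with 22.4% called higher and 32.1% called lower in spleen. These are the shares to set the list counts below against. The members and lists were chosen with earlier results of these data known, so their counts are a description. The exact two-sided sign-flip test over the 10 pairs gave p = 0.00195 for each member, the smallest value it can give. That test treats the pairs as independent, but they come from 3 pairs of slides. With slide as a random block in limma, 8 of 8 members were called, against 46.7% of all genes, and 8 of 8 without the STAT6-KO pair of MI 4 weeks, against 52.5% of all genes. With every probe tested by itself, 12 of 12 probes of the members were called higher, against 22.3% of 33524 probes. Every spleen array lay above every bone marrow array for 5 of 8 members (Cx3cr1, Adgre1, Ly86, C1qb, and C1qc), against 5.91% of 27727 genes. The median over all genes depends on the scaling, at -0.17 here and -0.06 after quantile normalization, and the members were higher in spleen under each scaling tried. The methods' t-test with its fold threshold of 2 called 7 members, without Csf1r, against 22.5% of all genes, and 8 after Benjamini-Hochberg without the fold, against 14635 of 27659 genes.

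**Figure D2:**
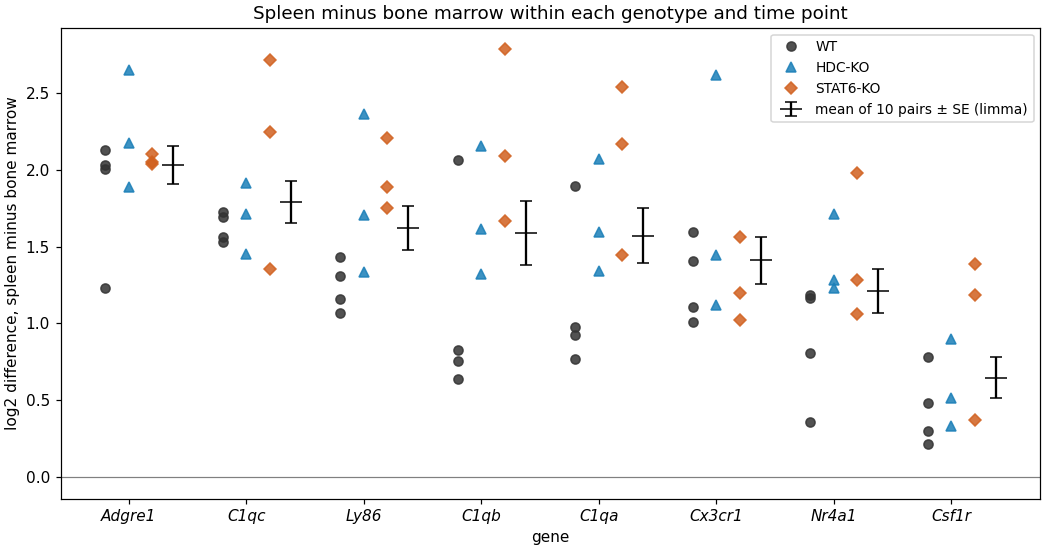
Difference of each member between spleen and bone marrow (log2, spleen minus bone marrow) in each of the 10 pairs that share a genotype and a time point, with symbols for the genotypes and, to the right, the mean of the pairs with its SE from limma. Every pair lies above 0, from 0.21 for Csf1r in WT at MI 4 weeks to 2.78 for C1qb in the STAT6-KO control.

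Genes that share the lineage of the members were mostly higher in spleen too. In a list of nonclassical monocyte genes, 7 of 10 were called higher and 0 lower, with a median difference of 1.16. The lipid receptor Cd36 (1.49), the integrin Itgax (2.25), Adgre4 (2.73), and Cd300e (3.07) had the largest differences. In a list of tissue macrophage genes, 15 of 16 were higher and 0 lower, with a median of 1.39, led by Mertk (2.58), a receptor for the uptake of dying cells, Aif1 (2.30), the mannose receptor Mrc1 (2.22), and the scavenger receptor Marco (2.14). Of 6 genes of red pulp macrophages, which recycle iron from red blood cells, 5 were higher and 0 lower, including their transcription factor Spic (3.72), Cd5l (2.72), Vcam1 (2.04), and the heme-degrading enzyme Hmox1 (1.5). The classical monocyte list did not follow this direction. There 2 of 8 measured genes were higher and 2 lower, with a median of -0.003. The chemokine receptor Ccr2 was higher by 0.81 and Vcan by 0.65, whereas Chil3 was lower (-1.08).

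The transcription factors of mononuclear phagocytes were divided. Of 12 tested, 8 were higher and 3 lower in spleen, with a median of 1.15. Spic, Nr1h3 (3.0), and Maf (2.06), factors of differentiated macrophages, were among the higher ones. The median level of Spi1, the gene of PU.1, was lower in spleen (0.38) than in bone marrow (1.13). The ligands and partners of the members went both ways, with 4 of 12 higher, 3 lower, and a median of 0.05. Cd180, the receptor that Ly86 binds, was higher by 1.54. The C1 inhibitor Serping1 (-1.84) was lower, as was the C1q partner C1s1, which was well above background on 1 of 11 spleen and 8 of 11 bone marrow arrays. In the list of other complement genes, 4 of 11 were higher and 5 lower, with a median of -0.08. C2 was higher by 3.42 and Cfb by 1.89, while the receptor C5ar1 (-1.41) was lower, as was Cfd, which was well above background on 2 of 11 spleen arrays. Of 7 lysosome genes with a probe, 1 was higher (Ctss, 0.83) and 4 were lower, with a median of -0.35, among them Cd63 (-1.26), Ctsd (-0.52), and Lamp2 (-0.36). Of 7 immediate early genes, 2 were higher (Fosb, 1.19, and Egr1, 0.79) and 1 lower (Ier2, -1.22), with a median of 0.40.

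Markers of other cells that a CD11b+ fraction can hold differed between the tissues as well, and their part in the differences of the members was not tested. Of 8 neutrophil granule genes, 8 were lower in spleen, with a median of -2.28, led by Elane (-3.62), Ctsg (-3.21), Prtn3 (-3.20), and Mpo (-2.79). Their mean level ranged from 1.54 to 4.13 in spleen and from 4.70 to 5.47 in bone marrow, with 8 of 8 well above background on every array. Of 7 genes of mature neutrophils, 5 were lower and 0 higher, with a median of -0.47, including Mmp9 (-2.57) and Mmp8 (-1.95). Their mean level ranged from 3.58 to 5.20 in spleen and from 5.13 to 5.72 in bone marrow. CD11b itself (Itgam, -1.47) and its partner chain Itgb2 (-1.31) were lower in spleen, as were Fcgr3 and Tyrobp of the same list, 4 of 4 with a median of -1.02.

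Lymphocyte and dendritic cell markers were mostly higher in spleen, apart from the T cell list, which was divided. Of 5 B cell genes, 5 were higher with a median of 1.74, and their mean level ranged from 0.23 to 2.47 in spleen and from -2.40 to 0.96 in bone marrow, with 5 of 5 well above background on every array. Of 4 NK cell genes, 3 were higher with a median of 2.48, including Gzma (3.45) and Ncr1 (2.99). Their mean level ranged from -1.70 to 0.48 in spleen and from -2.93 to -1.79 in bone marrow. Of 4 T cell genes, 2 were higher (Cd3g, 4.29, and Cd3e, 1.02) and 1 lower (Cd3d, -1.50), with a median of 0.75. The mean level of the list ranged from 0.22 to 2.15 in spleen and from -0.20 to 0.57 in bone marrow. Of 6 dendritic cell genes, 4 were higher and 0 lower with a median of 2.38, among them Ccr7 (3.71) and Cd209a (2.85). Xcr1 was not well above background in bone marrow and was at least 4.94-fold higher in spleen. The dendritic cell list had mean levels from 0.45 to 1.67 in spleen and from -1.80 to -0.54 in bone marrow.

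Of 4 eosinophil genes, 2 were lower (Epx, -3.96, and Prg2, -3.68) and 1 was higher (Ccr3, 2.29), with a median of -1.80. Their mean level ranged from -1.91 to 1.03 in spleen and from -0.45 to 0.96 in bone marrow. Of 4 erythroid genes with a probe, 2 were higher (Alas2, 1.17, and Hba-a1, 1.03) and 0 lower, with a median of 0.17. Their mean level ranged from -0.98 to 1.59 in spleen and from -1.90 to 1.29 in bone marrow.

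**Figure D3:**
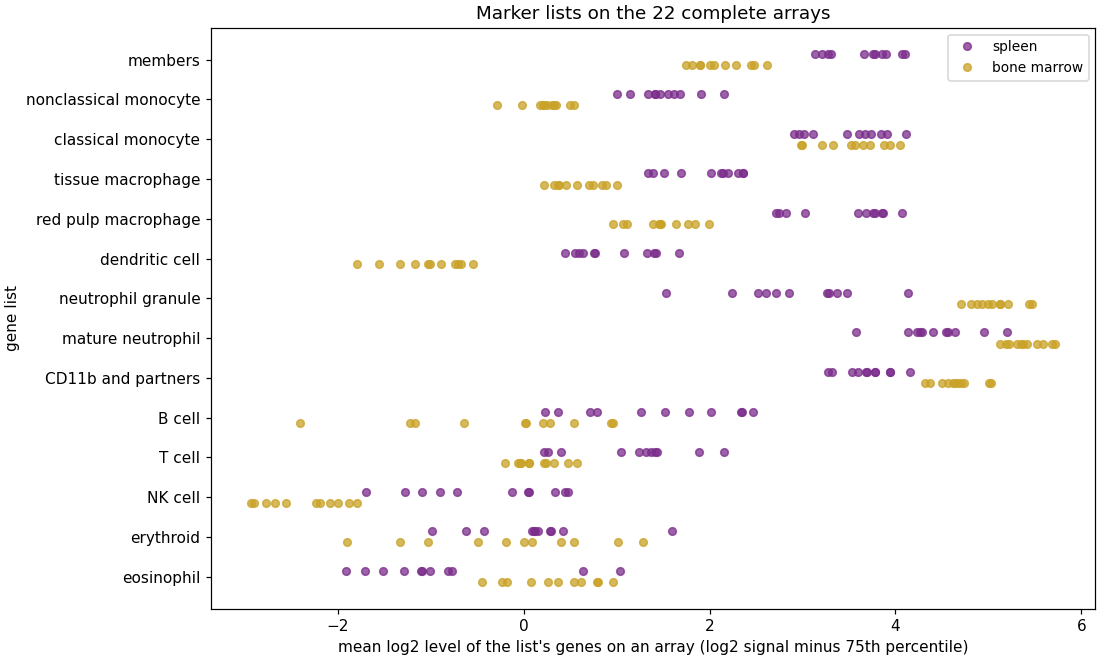
Mean level of the genes of each list (log2 signal minus the 75th percentile of the array, horizontal axis) on each of the 22 arrays, with 1 point per array and a colour for each tissue. The members lie between 3.14 and 4.10 in spleen and between 1.74 and 2.62 in bone marrow, while the neutrophil granule genes lie between 1.54 and 4.13 in spleen and between 4.70 and 5.47 in bone marrow.

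The knockouts were then compared with WT within the spleen, in fits over the arrays of all 3 genotypes with time point as an additive term. After MI the C1q genes stood lowest in WT at each time. In WT spleen C1qa was 2.69 in the control and 1.23, 1.11, and 0.98 at MI 1, 2, and 4 weeks, whereas in STAT6-KO spleen it was 2.33, 3.0, 2.39, and 2.70 in the same order. HDC-KO spleen had 2.42, 1.70, and 2.49 at MI 1, 2, and 4 weeks. At each time after MI both knockouts thus lay above WT, but the WT control lay above the STAT6-KO control.

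C1qb and C1qc had a similar order after MI. C1qb was 1.03 in the WT control and -0.42, -0.52, and -0.20 after MI, against 1.09, 1.31, 0.74, and 1.02 in STAT6-KO and 0.75, -0.07, and 1.03 in HDC-KO after MI. C1qc was 4.39, 3.76, 3.90, and 3.39 in WT, 4.77, 5.04, 4.79, and 4.72 in STAT6-KO, and 4.66, 4.02, and 4.66 in HDC-KO after MI. For C1qc the STAT6-KO and WT arrays did not overlap, while for C1qa and C1qb the WT control lay within the STAT6-KO range. In limma fits with time point as a term, STAT6-KO minus WT was 0.97 for C1qc (SE 0.22, adjusted p = 0.0639), 1.06 for C1qb (SE 0.27, adjusted p = 0.078), and 1.1 for C1qa (SE 0.34, adjusted p = 0.118). STAT6-KO was higher at 4 of 4 time points for C1qb and C1qc and at 3 of 4 for C1qa.

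By that test 0 of 8 members passed the threshold in STAT6-KO against WT spleen, where 1.95% of all genes did, and 3 members, the C1q genes, had an unadjusted p under 0.05, against 6068 of 26472 genes. The median over the members was 0.29, and over all genes -0.06. By limma the calls depended on the control arrays. Without them the 3 C1q genes passed, at 1.59 for C1qa (adjusted p = 0.0174), 1.40 for C1qb (adjusted p = 0.0261), and 1.17 for C1qc (adjusted p = 0.0424), against 3.67% of all genes. Over all settings tried the adjusted p ranged from 0.0174 to 0.537 for C1qa, from 0.0261 to 0.472 for C1qb, and from 0.0424 to 0.493 for C1qc. Without the MI 4 weeks array labelled STAT6-KO, the differences were 1.0 for C1qa, 1.09 for C1qb, and 0.95 for C1qc, and 0 members passed, against 0.813% of all genes. That share moved widely, to 0.213%, 0.241%, and 0.115% without MI 1, 2, or 4 weeks, 0.554% with the 2 genotypes alone, and 0.0151% with normexp background. The methods' t-test with its fold threshold called C1qa and C1qb, against 2.99% of all genes, and 0 members after Benjamini-Hochberg.

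In HDC-KO against WT spleen the C1q genes had differences of 0.85 for C1qa (SE 0.38, adjusted p = 0.233), 0.78 for C1qb (SE 0.30, adjusted p = 0.177), and 0.67 for C1qc (SE 0.25, adjusted p = 0.163). Each was higher in HDC-KO at 3 of 3 time points. The plain means of the differences at those times were 1.093, 0.945, and 0.764 in the same order, since the fit also draws on the control and STAT6-KO arrays. By limma 0 of 8 members passed, against 2.8% of all genes, 2 members had an unadjusted p under 0.05 (C1qb and C1qc), against 5987 of 26472 genes, and the methods' t-test called 0. The median over the members was 0.29, and over all genes 0.06. Without the control arrays C1qa passed at 1.09 (adjusted p = 0.0351), against 4.91% of all genes, as it did in a fit of the 2 genotypes alone (adjusted p = 0.0419). Over all settings its adjusted p ranged from 0.0351 to 1. The share of all genes was 9.95% with the 2 genotypes alone, 0%, 0.747%, and 0.0268% without MI 1, 2, or 4 weeks, and 0.0113% with normexp background.

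On the probes used, Csf1r, Cx3cr1, Adgre1, Ly86, and Nr4a1 had fitted differences between 0.03 and 0.36 in HDC-KO against WT spleen. In STAT6-KO against WT they lay between -0.12 and 0.35. The probe mattered here, most for Csf1r. As plain means over the time points, HDC-KO minus WT on the probes used was 0.05 for Csf1r, higher at 1 of 3. It was 0.44 for Cx3cr1, higher at 3 of 3, and 0.28 for Adgre1, higher at 2 of 3. On their other probes this mean was 0.76 and 0.51 for Csf1r, 0.62 for Cx3cr1, and 0.50 for Adgre1, each higher at 3 of 3 time points. STAT6-KO minus WT in spleen averaged 0.68 for the other Adgre1 probe, 0.26 and 0.03 for those of Csf1r, each higher at 3 of 4, and -0.11 for that of Cx3cr1, higher at 2 of 4. In bone marrow 1 other Csf1r probe was lower at every time point compared, by a mean difference of -0.45 in HDC-KO and -0.66 in STAT6-KO, and the other Cx3cr1 probe was lower at 4 of 4 in HDC-KO (-0.28). These differences were not tested. Of the tissue macrophage genes, Marco passed in HDC-KO (2.31, adjusted p = 0.0494), 1 of 16, and 0 of 16 passed in STAT6-KO, with list medians of 0.34 and 0.55. The red pulp macrophage genes had medians of 0.58 and 0.97, with 0 of 6 passing in either. In HDC-KO and STAT6-KO the medians were 0.34 and -0.18 for nonclassical and -0.38 and -0.08 for classical monocyte genes. For the transcription factors of mononuclear phagocytes they were 0.18 and -0.03, and 0 genes of these 3 lists passed in either. The neutrophil granule genes had medians of -0.63 in HDC-KO, with 0 of 8 passing, and -0.78 in STAT6-KO, with 1 lower (Ngp, -1.25). Their mean level was 2.72, 4.13, 3.27, and 3.29 in WT spleen from control to MI 4 weeks, 3.48, 2.24, and 2.61 in HDC-KO after MI, and 2.86, 3.37, 2.52, and 1.54 in STAT6-KO. In HDC-KO and STAT6-KO the medians were -0.35 and 0.98 for eosinophil genes, 0.49 and 0.65 for B cell genes, and 0.12 and -0.70 for NK cell genes. They were 0.58 and -0.11 for T cell genes, -0.52 and -0.03 for mature neutrophil genes, and -0.51 and -0.26 for CD11b and its partners. In these lists 0 genes passed. The part of any of these cells in the C1q differences was not tested.

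In bone marrow, Ly86 and Nr4a1 lay lower in both knockouts than in WT at each time compared. Ly86 was 2.89, 2.81, 2.25, and 2.90 in WT from control to MI 4 weeks, 2.08, 1.94, and 2.07 in STAT6-KO at control, MI 2 weeks, and MI 4 weeks, and 2.63, 1.65, 1.96, and 2.78 in HDC-KO. The STAT6-KO arrays lay below every WT array. Nr4a1 was 4.18, 3.81, 4.02, and 5.28 in WT, 2.84, 3.80, and 4.46 in STAT6-KO, and 3.75, 3.76, 3.34, and 5.05 in HDC-KO. For this gene STAT6-KO overlapped with WT. STAT6-KO minus WT was -0.77 for Ly86 (SE 0.23, adjusted p = 0.114) and -0.74 for Nr4a1 (SE 0.26, adjusted p = 0.155), each lower at 3 of 3 time points. HDC-KO minus WT was -0.46 for Ly86 and -0.35 for Nr4a1, each lower at 4 of 4.

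By limma 0 of 8 members passed in STAT6-KO against WT bone marrow, against 4.61% of all genes, 2 members had an unadjusted p under 0.05 (Ly86 and Nr4a1), against 6077 of 27090 genes, and the methods' t-test called 0. The median over the members was -0.08, and over all genes 0.07. Of all genes, 3.98% were called higher there and 0.628% lower. The transcription factor Irf8 was lower (-0.69), 1 of 12 in its list, with a list median of -0.42. The macrophage gene Aif1 was lower too (-0.76), 1 of 16, whereas the list median was 0.28. So were 3 of 7 immediate early genes, Fosb (-1.41), Junb (-1.15), and Ier2 (-1.09), with a list median of -0.62. The B cell factor Pax5 was lower by limma too (-1.04), 1 of 5 in its list, with a list median of -0.65. Cd4 was higher (0.78), 1 of 4 T cell genes, whose median was 0.001. Prf1 was higher (0.54), 1 of 4 NK cell genes, whose median of -0.40 had the opposite sign. These calls depend on the arrays used, since 0% of all genes passed with the 2 genotypes alone, and 0.317%, 3.73%, 0.0412%, and 1.1% without control, MI 1, 2, or 4 weeks. In HDC-KO against WT bone marrow 0 of 8 members passed, against 0.443% of all genes, 0 had an unadjusted p under 0.05, against 5751 of 27090 genes, and the methods' t-test called 0. The median over the members was -0.11, against -0.006 over all genes, and the differences ran from -0.46 to 0.44. The share of all genes ranged over the limma settings from 0.0112% without MI 2 weeks to 1.46% without control, and was 3.68% by the methods' t-test. The C1q genes went opposite ways over time in bone marrow. STAT6-KO minus WT at control, MI 2 weeks, and MI 4 weeks was -1.0, -0.13, and 1.19 for C1qa, -0.66, -0.19, and 0.37 for C1qb, and -0.78, 0.37, and 1.67 for C1qc, so their fitted differences of 0.02, -0.18, and 0.43 average over signs. HDC-KO minus WT at MI 4 weeks was 1.09 for C1qa, 0.435 for C1qb, and 1.51 for C1qc, and in the controls it was -0.44, -0.39, and -0.41. The fitted HDC-KO differences were 0.13, -0.11, and 0.44 in the same order.

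Whether the genotypes differed in the spleen to bone marrow difference was tested on the 10 pairs. The mean spleen minus bone marrow difference of C1qb was 1.07 ± 0.67 in WT (SD, 4 pairs), 1.70 ± 0.42 in HDC-KO (SD, 3 pairs), and 2.18 ± 0.57 in STAT6-KO (SD, 3 pairs), and that of C1qa was 1.14 ± 0.51, 1.67 ± 0.37, and 2.05 ± 0.55 in the same order. The ranges of WT and STAT6-KO overlapped for both genes through the WT control pair. For STAT6-KO against WT the interaction was 1.11 for C1qb (SE 0.41, adjusted p = 0.272) and 0.91 for C1qa (SE 0.36, adjusted p = 0.306). By limma 0 of 8 members passed, against 0.347% of all genes, 3 had an unadjusted p under 0.05 (C1qa, C1qb, and Ly86), against 3799 of 27659 genes, and the methods' t-test called 0. For HDC-KO against WT 0 of 8 members passed, against 0.991% of all genes, 0 had an unadjusted p under 0.05, against 4110 of 27659 genes, and the methods' t-test called 0. The members' medians were 0.55 and 0.49, and those over all genes -0.08 and 0.05. Without the MI 4 weeks spleen array labelled STAT6-KO, the interaction was 1.36 for C1qb and 1.21 for C1qa, with 0 members and 2 genes (0.00727%) passing. The neutrophil granule gene Ngp was the 1 gene of 8 in its list to pass in STAT6-KO (-1.67), with all arrays. Over the limma settings the STAT6-KO interaction had from 0 genes, without MI 2 or 4 weeks, and 3 without control, to 484 (1.75%) unpaired over all arrays, and the methods' t-test called 5.52%. For HDC-KO the share ranged over the limma settings from 0%, without MI 4 weeks or with normexp background, to 1.85% with quantile normalization, and was 6.6% by the methods' t-test.

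The times after MI were compared with the controls over the genotypes, all against the same control arrays. In spleen, with the scaling used, the members lay lower on average at MI 1 and 2 weeks, with medians of -0.26 and -0.44. Over all genes the medians were -0.16 and -0.13, and with median scaling they were 0.13 and 0.12. The members' medians with that scaling are not given here. At MI 1 week every member but Csf1r changed sign in at least 1 setting, and at MI 2 weeks only Nr4a1 and Cx3cr1 did. By sign alone, 8 of 8 members lay below control in WT at both times, while in STAT6-KO 5 of 8 lay above it at either time. Some of these differences were near 0, such as -0.05 for Csf1r in WT at MI 1 week and 0.02 for C1qc in STAT6-KO at MI 2 weeks. The difference between the genotypes was not tested, and the share of all genes with these signs is not given here. HDC-KO has no control array in spleen. C1qb at MI 2 weeks had a difference of -1.09 (SE 0.36, adjusted p = 0.125). By genotype its MI 2 weeks minus control difference was -1.54 in WT and -0.35 in STAT6-KO. At MI 4 weeks the median of the members was 0.01, and over all genes 0.08.

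By limma 0 of 8 members passed at MI 1, 2, or 4 weeks in spleen, against 7.9%, 2.25%, and 0% of all genes. At an unadjusted p under 0.05 there were 0, 1 (C1qb), and 1 (Nr4a1), against 7249, 6285, and 2303 of 26472 genes, and the methods' t-test called 0 members at each time. At MI 4 weeks, where 0 of 26472 genes passed, the methods' t-test called 201, with 0 after Benjamini-Hochberg. The calls at MI 1 and 2 weeks depend on the settings. At MI 1 week 0% of all genes passed without WT or with normexp background, 0.986% without HDC-KO, and 12.8% without STAT6-KO. At MI 2 weeks 0% passed without WT, without HDC-KO, without STAT6-KO, or with normexp background, so each call named below for that time is lost in those settings.

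At MI 1 week in spleen 1.63% of all genes were called higher and 6.27% lower, and at MI 2 weeks 0.2% and 2.05%. With median scaling, 57.2% and 48.4% of the calls at these times were higher. Among the ligands and partners, Nr4a2, a relative of Nr4a1, was lower at MI 1 week (-1.91) and MI 2 weeks (-1.34), and the ligand Cx3cl1 at MI 1 week (-1.11). These were 2 of 11 genes at MI 1 week and 1 of 11 at MI 2 weeks, with list medians of -0.07 and -0.19. Spi1 was lower at MI 2 weeks (-1.09), 1 of 12 in its list, with a list median of -0.53. The immediate early genes Junb (-0.97) and Dusp1 (-0.91) were lower at that time as well, 2 of 7 with a list median of -0.52. At MI 1 week the neutrophil granule genes Elane (1.88) and Prtn3 (1.66) were higher, 2 of 8 with a list median of 1.12, and the T cell genes Cd3g (-2.07) and Cd3e (-1.98) were lower, 2 of 4. The dendritic cell factor Zbtb46 was lower at MI 1 week (-2.22) and MI 2 weeks (-1.82), 1 of 6 in its list each time. The list medians were -0.3 and -0.19. Their part in the members' values was not tested.

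In bone marrow Nr4a1 stood at its highest at MI 4 weeks in every genotype. MI 4 weeks minus control was 1.1 in WT, 1.30 in HDC-KO, and 1.63 in STAT6-KO, and at MI 2 weeks the differences were -0.17, -0.41, and 0.97. In spleen, MI 4 weeks minus control was 0.29 in WT and 0.93 in STAT6-KO, and HDC-KO had its highest level at that time (6.27). The fitted difference at MI 4 weeks was 1.34 in bone marrow (SE 0.27, adjusted p = 0.0862) and 0.71 in spleen (SE 0.24, adjusted p = 0.507). Without the STAT6-KO array of that time the difference in spleen was 0.70. The difference in bone marrow passed when only genes well above background on every array were tested (adjusted p = 0.0454). Over all settings its adjusted p ranged from 0.0454 to 0.599. In spleen at MI 4 weeks the 7 immediate early genes had a median of 0.68, with 0 passing.

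By limma 0 of 8 members passed at MI 1, 2, or 4 weeks in bone marrow, against 0.148%, 0%, and 0% of all genes. At an unadjusted p under 0.05 there were 0, 0, and 2 members (C1qb and Nr4a1), against 5337, 2025, and 5187 of 27090 genes. The methods' t-test called 0, 0, and 1 (Nr4a1), and 0 after Benjamini-Hochberg. Of all genes, the methods' t-test called 128 and 358 at MI 2 and 4 weeks, with 0 after Benjamini-Hochberg at either time. The medians of the members were -0.02, -0.16, and 0.24 at MI 1, 2, and 4 weeks, and over all genes 0.06, 0.007, and 0.04. The 7 immediate early genes had medians of 0.67, -0.16, and 0.41, with 0 passing. At MI 4 weeks 2.54% of genes passed when only those well above background on every array were tested. Pax5 was lower at MI 1 week (-1.91), 1 of 5 B cell genes, though 0% of all genes passed there without WT, without HDC-KO, or with normexp background, and 1.72% without STAT6-KO. The B cell list's mean level was between -2.40 and -1.17 on the bone marrow arrays of WT and HDC-KO at that time.

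The members varied together to different degrees. Pearson r over the arrays is given as a description, with the tissues, slides, and scaling shared by all points. Within the 11 spleen arrays r was 0.962 between C1qa and C1qb, 0.932 between C1qa and C1qc, and 0.902 between C1qb and C1qc. Adgre1 followed C1qb (0.894) and C1qa (0.835) there, whereas Nr4a1 did not follow C1qc (-0.018). Within the 11 bone marrow arrays C1qa and C1qc had 0.899, C1qb and C1qc 0.609, and C1qb and Nr4a1 0.834. Csf1r and Ly86 had 0.759 in spleen and 0.787 in bone marrow.

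Among 14080 genes well above background on all 22 arrays, the genes most like each member were found after removal of the mean of each tissue. C1qa was most like C1qb (0.933), Epb41l3 (0.92), and C1qc (0.903), and over the arrays without that step it was most like C1qb (0.979). C1qb was next to Epb41l3 (0.883) and Erbb2 (0.876), and C1qc was next to Gpd1 (0.961), Pld3 (0.943), and Kcnj10 (0.939). Csf1r was most like the lysosomal genes Ctsa (0.91) and Lamp1 (0.876) and Cd82 (0.865). For Cx3cr1 they were Tubb6 (0.833), P2ry6 (0.773), and Rgs10 (0.738), and for Ly86 they were Crip1 (0.89), Tnfrsf1b (0.883), and Tspan31 (0.854). For Adgre1 they were Dbndd2 (0.776), Lgmn (0.775), and Tns1 (0.772), over 21 arrays. Nr4a1 was nearest to Dusp5 (0.91), Pde4b (0.897), and Dusp2 (0.858).

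C1qb, C1qc, and C1qa follow each other in that order on chromosome 4, with no other protein-coding gene between them in the RefSeq table. The RefSeq promoter table, on build GRCm38.p6, held 6 of the 9 members, with 250 bases before and 50 after the gene start. The promoters of C1qb and C1qc are given because these genes varied together, and that of Nr4a1 because its level was highest at MI 4 weeks in bone marrow. The windows are chr4:136886151-136886450 (minus strand) for C1qb, chr4:136892865-136893164 (minus strand) for C1qc, and chr15:101266596-101266895 (plus strand) for Nr4a1, each written 5′ to 3′ on the strand of the gene. Capitals mark matches, on either strand, to any of 5 motifs searched.
C1qb: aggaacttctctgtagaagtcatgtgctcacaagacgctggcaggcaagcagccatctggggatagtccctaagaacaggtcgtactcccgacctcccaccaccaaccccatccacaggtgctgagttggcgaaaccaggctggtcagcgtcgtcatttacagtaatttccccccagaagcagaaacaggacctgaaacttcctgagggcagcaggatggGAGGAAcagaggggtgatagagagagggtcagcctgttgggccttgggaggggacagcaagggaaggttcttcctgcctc
C1qc: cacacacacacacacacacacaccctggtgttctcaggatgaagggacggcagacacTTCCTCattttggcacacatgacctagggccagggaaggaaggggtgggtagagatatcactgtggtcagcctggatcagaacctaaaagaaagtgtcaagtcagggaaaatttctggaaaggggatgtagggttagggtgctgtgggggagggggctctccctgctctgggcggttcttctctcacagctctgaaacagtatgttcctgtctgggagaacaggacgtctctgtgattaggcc
Nr4a1: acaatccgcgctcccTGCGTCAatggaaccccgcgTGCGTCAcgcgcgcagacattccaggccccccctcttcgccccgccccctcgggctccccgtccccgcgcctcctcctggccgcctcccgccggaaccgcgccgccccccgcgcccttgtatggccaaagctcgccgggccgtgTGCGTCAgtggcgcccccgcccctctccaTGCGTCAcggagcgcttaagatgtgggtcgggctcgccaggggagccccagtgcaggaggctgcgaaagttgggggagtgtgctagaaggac

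The motifs were GAGGAA, as bound by PU.1, which 28.3% of all 32851 promoters of this length hold, TGACGTCA (1.79%) and TGCGTCA (2.12%), a cAMP response element and a variant of it, TGCTGAC (4.67%), a part of the MAF recognition element, and TGANTCA (7.81%), the AP-1 site. TGCGTCA was added to the search after the Nr4a1 window had been read, so its matches there were seen before they were counted. C1qb holds GAGGAA at bases 221 to 226 of its window, and C1qc holds it on the opposite strand at bases 58 to 63. Nr4a1 holds TGCGTCA 4 times, starting at bases 16, 36, 180, and 209, and none of the other motifs. Cx3cr1 and Ly86 hold none of the 5 motifs in their windows, and Cd68 holds GAGGAA and TGANTCA 2 times each. The matches are places where the letters occur, and binding was not measured.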

How the data were processed

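Per the file headers, the deposited values are spot intensities from Agilent Feature Extraction 11.0.1.1, which had subtracted background and spatial trend and had not scaled the arrays to each other. The GCRMA of the submitters' notes and the Genespring output of the study's methods were not used here. Control spots and 3055 outlier spots were left out, and 0 were saturated. Of 39429 probes, 27234 were named through RefSeq (GRCm38.p6). Each log2 signal had the 75th percentile of its own array taken away, and the probe of the highest mean stood for its gene. Genes well above background on at least 2 arrays were tested by limma 3.58.1 in R 4.3.3, with Benjamini-Hochberg adjusted p under 0.05 as the threshold. Tissues were compared over 10 pairs as blocks. Genotypes and times were compared within a tissue with the other factor as an additive term, so time points or genotypes stand in for replicates. The members and lists were chosen with earlier results of these data known. Of each list, at most the 4 called genes with the largest absolute difference in a comparison were named, and for each member the 3 genes most like it. Some of these are left out, and Spi1 was named besides in the comparison of tissues. Ly6c2 and Hbb-b1 of the lists were not analysed here.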

Additional observations from a re-analysis of the deposited data

Results flagged for a closer look

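Each member was looked at in sets of the 4 arrays of a genotype and tissue, 31 sets in all. In them 4 arrays stood apart from the others by the gap to the nearest array relative to the range of the set. Chance gives about 1 in 20 such sets when sets are independent and their arrays are replicates. These sets share arrays, their members vary together, and their arrays are different times, so that rate does not hold for them. C1qa was 2.69 in WT spleen control, above the WT spleen arrays after MI. C1qb was -0.59 in HDC-KO bone marrow MI 4 weeks, above the other HDC-KO bone marrow arrays. Ly86 was 2.25 in WT bone marrow MI 2 weeks, below the other WT bone marrow arrays. Nr4a1 was 5.75 at MI 4 weeks on the array labelled as STAT6-KO spleen, above the other STAT6-KO spleen arrays.

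For 4 members, on the probes used, every time after MI lay above the control in STAT6-KO and below it in WT, in a tissue, and these differences between genotypes were not tested. Their mean MI minus control differences were 0.36 in STAT6-KO and -1.58 in WT for C1qa in spleen, and 0.94 and -0.58 for C1qa in bone marrow. They were 0.23 and -0.66 for Adgre1 in spleen, 0.91 and -0.80 for C1qc in bone marrow, and 0.064 and -0.65 for Cx3cr1 in bone marrow. The pattern is not seen on the other probes of Cx3cr1 and Adgre1. On the Cx3cr1 probe, WT bone marrow was -0.21 at MI 4 weeks and -0.85 in the control, and on the Adgre1 probe STAT6-KO spleen at MI 4 weeks lay just below its control. The STAT6-KO spleen means include the MI 4 weeks array. Each rests on 1 control array per genotype, and STAT6-KO bone marrow has 2 arrays after MI. Some differences were near 0, as in STAT6-KO at MI 2 weeks for Cx3cr1 in bone marrow (0.015) and C1qa in spleen (0.055). The share of all genes with this pattern is not given here, so the pattern is not read as particular to the members.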

How the results depend on the processing

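The counts of members called in 13 comparisons were recomputed under 181 alternatives, and 175 left them within 1.5 times of the value given. For 12 of the 13 the count was 0, and a 0 that remains 0 says little of stability, since the share of all genes called moved many-fold between the same settings, for example from 4.61% to 0% in STAT6-KO against WT bone marrow. In HDC-KO against WT spleen the count went from 0 to 1 without the control arrays and to 1 with the 2 genotypes alone. In STAT6-KO against WT spleen it went to 3 without the control arrays and to 2 by the methods' t-test. At MI 4 weeks in bone marrow it was 1 when genes had to be well above background on every array, a setting that tests fewer genes, and 1 by the methods' t-test. The causes of the others were not tested. In the comparison of tissues all 8 members were called in 21 of the 22 alternatives, apart from the methods' t-test with its fold threshold (7), and Csf1r ranged from 0.57 to 0.87 over them. For 22 differences of single members (those between tissues, those of the lowest adjusted p or called in any setting, and 3 more given in the report), 364 of 374 alternatives kept direction and side of the threshold. Differences nearer 0 did change direction, such as Cx3cr1 in the STAT6-KO interaction (6 of 15). Leaving out the MI 4 weeks array labelled STAT6-KO in spleen, or the WT pairs, was chosen after seeing the data. The former lowered the share of all genes called in STAT6-KO against WT spleen from 1.95% to 0.813%, and normexp lowered it to 0.0151%. Members were well above background, so dim signals limit the lists (Xcr1) more than the members.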
